A study of Rattus norvegicus with 15 samples.

Results

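The genes described here carry, coat, release and take up fatty acids in rat testes after irradiation: 4 fatty acid binding proteins (Fabp3, Fabp4, Fabp5 and Fabp9), the lipid droplet coat proteins Plin2 and Plin3, the triglyceride lipase Pnpla2 with its inhibitor G0s2, and lipoprotein lipase (Lpl). They were chosen by name, as the probe sets whose only gene symbol in the platform's annotation is one of these 9 symbols. All 9 were found, on 10 probe sets, among 14217 genes with a symbol of their own and 31099 probe sets in all. Irradiated testes came from LBNF1 rats, an F1 hybrid strain, given 6 Gy to the lower abdomen (5 arrays), and control testes came from rats of the same strain, sampled before irradiation (10 arrays). All rats were 25 to 27 weeks old. The labels call the samples of each group biological replicates, without saying whether each is a separate rat. How long after irradiation the testes were taken is not stated in the labels. The deposited values are log2 signals from Affymetrix 3' arrays, with an unknown zero point, so a level can be compared between arrays for 1 probe set but not between probe sets.

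Fatty acids are poorly soluble, and cells move them bound to small cytosolic carriers of the fatty acid binding protein family. Surplus fatty acids are stored as triglycerides, and cholesterol as cholesteryl esters, in lipid droplets whose surface is coated by perilipins, and lipases on that surface set the stored lipid free. In the testis, Sertoli cells take up residual bodies and dying germ cells and hold lipid droplets that vary with the cycle of the seminiferous epithelium, and Leydig cells keep cholesteryl esters in droplets as a source for steroid hormones.

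RefSeq's table of start sites held windows for 5 of the 9 genes (Fabp3, Plin2, Plin3, Pnpla2 and G0s2). Fabp4, Fabp5, Fabp9 and Lpl were not matched. The bases before the start site are shown for the 4 of these genes whose signal rose and, beside them, for Pnpla2, which fell. They are 5′ to 3′ on the gene's own strand in GRCr8, and capitals mark the motifs found, on either strand.
Fabp3, chr5:147935875-147936026, plus strand: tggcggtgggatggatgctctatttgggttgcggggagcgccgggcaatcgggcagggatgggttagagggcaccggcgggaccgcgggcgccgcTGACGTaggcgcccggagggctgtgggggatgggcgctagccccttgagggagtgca
Plin2, chr5:106229019-106229268, minus strand: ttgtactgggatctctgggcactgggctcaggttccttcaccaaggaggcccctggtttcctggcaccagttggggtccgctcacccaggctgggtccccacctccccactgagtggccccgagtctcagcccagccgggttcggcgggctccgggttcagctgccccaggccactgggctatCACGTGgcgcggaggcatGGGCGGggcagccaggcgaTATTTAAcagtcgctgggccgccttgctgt
Plin3, chr9:1210213-1210462, minus strand: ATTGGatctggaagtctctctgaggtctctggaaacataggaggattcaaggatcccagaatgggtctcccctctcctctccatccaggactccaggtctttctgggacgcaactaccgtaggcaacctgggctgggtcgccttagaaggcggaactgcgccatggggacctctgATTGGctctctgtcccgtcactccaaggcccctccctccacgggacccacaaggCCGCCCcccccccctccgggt
G0s2, chr13:107335949-107336198, minus strand: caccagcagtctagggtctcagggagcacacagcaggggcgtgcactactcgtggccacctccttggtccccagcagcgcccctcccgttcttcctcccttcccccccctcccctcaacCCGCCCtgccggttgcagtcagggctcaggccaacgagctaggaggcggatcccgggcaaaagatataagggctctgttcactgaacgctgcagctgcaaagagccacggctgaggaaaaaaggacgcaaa
Pnpla2, chr1:205982029-205982278, plus strand: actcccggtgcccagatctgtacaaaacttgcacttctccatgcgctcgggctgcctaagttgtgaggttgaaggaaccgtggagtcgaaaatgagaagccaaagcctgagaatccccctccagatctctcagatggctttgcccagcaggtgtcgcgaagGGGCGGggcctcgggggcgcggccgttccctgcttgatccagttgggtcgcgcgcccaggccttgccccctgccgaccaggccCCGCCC
The Fabp3 window was shortened to 152 bases because another transcript of the gene starts inside it, and the other windows are 250 bases long. Plin2 has a further annotated start site, whose window was searched and is not shown. Each window was searched on both strands for 8 short motifs, of which only the nuclear receptor motif AGGTCA lies inside another, its direct repeat with 1 base between. GGGCGG was found in Plin2, Plin3, G0s2 and Pnpla2, against 30.5% of all 33469 windows. The Plin2 window also held CACGTG, 67 bases before the start site (5.59% of all windows), and TATTTAA, a motif added after the sequences were read, 30 bases before it (4.16% of all windows). TGACGT was found in the shortened Fabp3 window (6.95% of all windows) and ATTGG in that of Plin3 (34.0% of all windows). The shares of all windows count 250 bases each. The TATA box TATAAA, held by 12.9% of all windows, the nuclear receptor motif AGGTCA, held by 14.1%, and its direct repeat, held by 0.0508%, were found in none of the 5 shown. None of the 8 motifs was found in all 4 genes that rose and not in Pnpla2, with only 152 bases searched for Fabp3.

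The members did not change together. Of the 9 genes, 5 rose in irradiated testes (Fabp3, Plin2, Plin3, G0s2 and Lpl), 2 fell (Fabp9 and Pnpla2), Fabp5 did not pass the test, and Fabp4 lay below the array median in all 15 arrays and was not tested. Tested were probe sets at or above the median of the array in 5 or more of the 15 arrays, and a probe set was called if limma's adjusted p over all 18711 probe sets tested was below 0.05. Fabp9 entered the test through its control arrays alone, and G0s2 and Lpl through their irradiated arrays alone. By gene, read from its brightest tested probe set, 85.5% of 10841 genes were called, 47.6% higher and 37.9% lower in irradiated testes, so 7 calls among 8 tested members is close to the share of all genes. By probe set, 8 of the 9 tested were called (83.4% of all probe sets tested). Of these 6 were higher (49% of all probe sets tested) and 2 were lower (34.3% of all). The irradiated arrays did not overlap the control arrays in these 8 probe sets, as in 65.5% of all probe sets tested (41.3% with irradiated higher and 24.2% with irradiated lower). Over all genes the median change was 0.20 on the log2 scale, and a change is irradiated minus control throughout. In these whole-tissue samples, fewer cells of a type and less RNA per cell cannot be told apart.

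**Figure D1:**
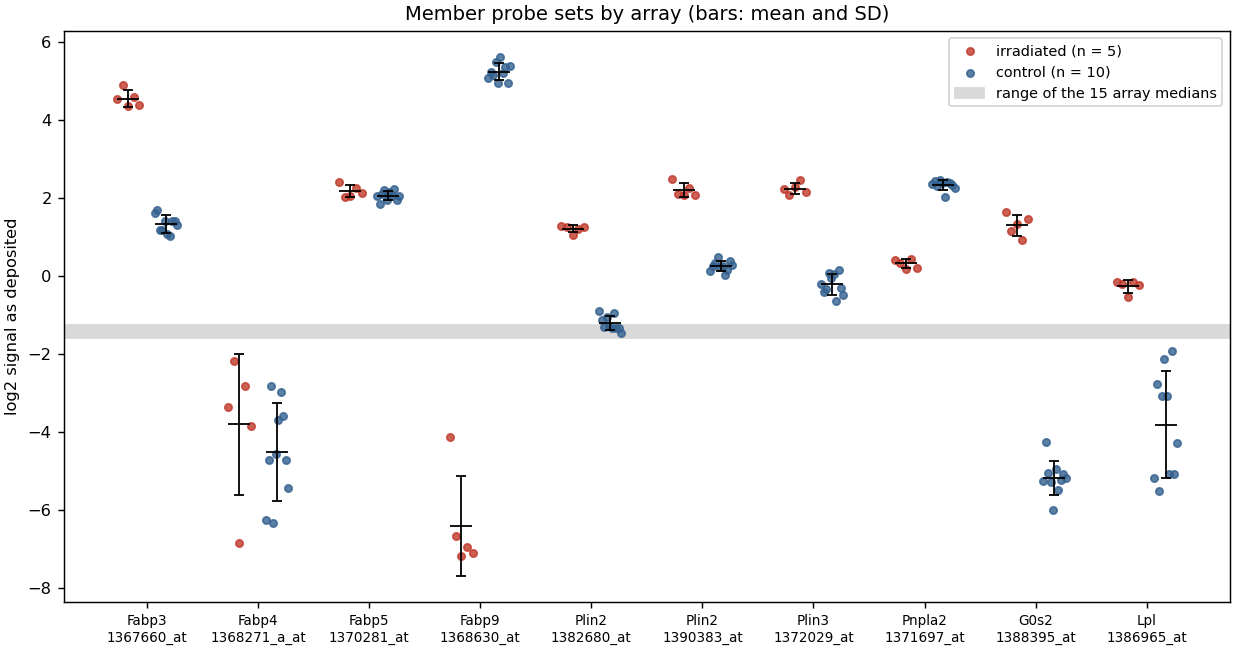
Log2 signal as deposited (vertical axis) of the 10 member probe sets, with 5 irradiated arrays (red) left of 10 control arrays (blue), the mean and SD as black bars, and the range of the array medians as a grey band. Fabp9 lies far above the band in control arrays and below it in irradiated arrays, G0s2 and Lpl lie below it in control arrays, and Fabp4 lies below it in both groups.

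The arrays of the 2 groups differed across the whole transcriptome, with correlations between 0.219 and 0.277 across groups, 0.958 and 0.972 among irradiated arrays and 0.918 and 0.960 among control arrays. The array median lay between -1.38 and -1.26 in irradiated and between -1.61 and -1.37 in control arrays. The actin signal at its 3' end minus that at its 5' end, a measure of RNA integrity, ranged from 0.90 to 1.16 in irradiated and from 0.65 to 1.89 in control arrays, with the 3 highest values in control replicates 6, 7 and 8. Without these 3 arrays each of the 8 calls held. Control arrays carried the defining genes of spermatids and spermatocytes, as a testis should. The summed linear signal of 9 spermatid markers on the array was 0.750 to 3.48 in irradiated and 272 to 413 in control arrays, and 9 of 9 tested were lower in irradiated testes. Among all genes tested, 37.9% were called lower.

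Fabp9 encodes the testis lipid binding protein, known in the rat as a protein of the perforatorium of the sperm head. Its signal (1368630_at) was -4.14, -6.67, -7.17, -6.95 and -7.10 in the 5 irradiated arrays, against a lowest value of 4.93, a median of 5.20 and a highest value of 5.60 in the 10 control arrays. Every irradiated array lay below its own array's median, where values give no order, and every control array lay far above. With irradiated arrays taken at their medians, Fabp9 was at least 93.1-fold lower in irradiated testes (limma adjusted p = 2.32e-14). Spermatid markers fell with it (9 of 9 tested), and so did spermatocyte markers (5 of 5 tested, with a summed signal of 0.428 to 0.600 in irradiated and 61.2 to 81.6 in control arrays). By comparison, 37.9% of all genes tested were called lower. All tested spermatocyte markers entered the test through control arrays alone, as did the spermatid markers Prm2, Tnp1, Tnp2, Acrv1, Akap4 and Tssk2. Their part in the fall of Fabp9 was not tested.

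Fabp3, the heart-type carrier that also serves muscle and other tissues that burn fatty acids, went the other way. Its signal (1367660_at) was 4.52, 4.89, 4.34, 4.57 and 4.38 in irradiated arrays, against a lowest value of 1.01, a median of 1.35 and a highest value of 1.69 in control arrays. All 5 irradiated arrays lay above all 10 control arrays. The mean was 4.54 ± 0.22 in irradiated testes (SD, n = 5) and 1.32 ± 0.22 in control testes (SD, n = 10), a change of 3.21 ± 0.12 (SE), or 9.28-fold (limma adjusted p = 2.70e-13). Relative to the median of all genes the change was 3.01, and 3.52% of the genes tested had a change at least as high.

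Fabp5, the epidermal-type carrier found in many tissues, did not pass the test. Its signal (1370281_at) was 2.39, 2.02, 2.04, 2.25 and 2.13 in irradiated arrays, against a lowest value of 1.83, a median of 2.05 and a highest value of 2.21 in control arrays. The groups overlapped, with 2 of 5 irradiated arrays above the highest control array. The change was 0.11 (95% interval -0.07 to 0.30, limma adjusted p = 0.228), and relative to the median of all genes it was -0.09.

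Fabp4, the carrier of adipocytes, macrophages and capillary endothelium, was not measured above the array median anywhere. Its signal (1368271_a_at) was -3.37, -2.18, -6.85, -2.83 and -3.84 in irradiated arrays and ran from -6.35 to -2.82, with a median of -4.65, in control arrays. No size or direction of change can be given from such values. Of the adipocyte markers, Lep and Cidec lay below the median in all 15 arrays, Adipoq and Thrsp reached it in 1 control array each, and Plin1 did not pass. Only Cfd, known as a product of adipocytes and also of other cells, rose (at least 5.03-fold, limma adjusted p = 9.76e-11). The summed signal of the 6 adipocyte markers on the array was 2.29 to 3.07 in irradiated and 1.11 to 1.61 in control arrays. Cfd made up most of the irradiated sum, with a mean of 0.88 in irradiated and -2.02 in control arrays.

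Fabp12, Fabp4, Fabp9, Pmp2 and Fabp5 are neighbours in this order among the protein-coding genes of the rat assembly GRCr8. Only Fabp9 and Fabp5 were tested, and they did not change alike. Fabp12, Fabp4 and Pmp2, the myelin member of the family, lay below the array median in all 15 arrays. Fabp9, in the middle, was at least 93.1-fold lower, and Fabp5, at the end, did not pass. The next genes on the Fabp12 side with a probe set, Impa1 and Zfand1, were higher in irradiated testes. Impa1, an inositol monophosphatase, rose by 0.95 ± 0.19 (SE, limma adjusted p = 0.000166). Beyond Fabp5, the probe set of Pag1 was not tested, and a tested probe set of Zfp704 was higher, with a change of 1.95 ± 0.15 (SE, limma adjusted p = 2.61e-09). Zbtb10, the next gene, was lower (limma adjusted p = 1.49e-05), with every irradiated array below its median. The other distant members, Fabp1, Fabp2, Fabp6 and Fabp7, known from liver, intestine, ileum and brain, also lay below the median in all 15 arrays.

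Both droplet coat proteins rose. Plin2, the adipophilin that coats droplets in most cells, has 2 probe sets. The brighter of them (1390383_at) was 2.48, 2.10, 2.06, 2.23 and 2.07 in irradiated arrays, against a lowest value of 0.02, a median of 0.24 and a highest value of 0.49 in control arrays. The groups were far apart, with a change of 1.94 ± 0.09 (SE), or 3.84-fold (limma adjusted p = 5.11e-12). The other (1382680_at) was 1.28, 1.25, 1.05, 1.19 and 1.25 in irradiated arrays, against a lowest value of -1.46, a median of -1.31 and a highest value of -0.90 in control arrays. Its change was 2.42 ± 0.10 (SE, limma adjusted p = 6.31e-13), in the same direction. When arrays were centred on Sertoli cell markers, the change of Plin2 turned to -0.33 in the brighter probe set and was 0.14 in the other.

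Plin3, a coat protein that moves from the cytosol onto young droplets, had a signal (1372029_at) of 2.23, 2.06, 2.27, 2.44 and 2.14 in irradiated arrays, against a lowest value of -0.64, a median of -0.26 and a highest value of 0.14 in control arrays. Irradiated arrays again lay above every control array. The change was 2.45 ± 0.13 (SE), or 5.47-fold (limma adjusted p = 1.51e-11). When arrays were centred on Sertoli cell markers it was 0.18 and did not pass (limma adjusted p = 0.251).

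Pnpla2 and G0s2 are an enzyme and its inhibitor, and they moved in opposite directions. Pnpla2, adipose triglyceride lipase, takes the first fatty acid off stored triglyceride. Its signal (1371697_at) was 0.41, 0.34, 0.17, 0.44 and 0.21 in irradiated arrays, against a lowest value of 2.02, a median of 2.36 and a highest value of 2.44 in control arrays. The change was -2.01 ± 0.08 (SE), which is 4.03-fold lower (limma adjusted p = 5.88e-13). G0s2, which binds and blocks Pnpla2, had a signal (1388395_at) of 1.62, 1.15, 1.32, 0.91 and 1.45 in irradiated arrays, against a lowest value of -6.00, a median of -5.22 and a highest value of -4.26 in control arrays. All control arrays lay below their medians and all irradiated arrays above, so G0s2 was at least 6.76-fold higher in irradiated testes (limma adjusted p = 2.17e-14). It entered the test only through the group where it was high.

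Lpl, which frees fatty acids from circulating lipoproteins at the capillary wall, had a signal (1386965_at) of -0.17, -0.22, -0.56, -0.15 and -0.25 in irradiated arrays. In control arrays the lowest value was -5.52, the median -3.69 and the highest -1.93, all below the array medians. The irradiated arrays lay above every control array, and Lpl was at least 2.29-fold higher (limma adjusted p = 2.02e-05). Like G0s2, it entered the test only through the group where it was high. Of the endothelial markers, 8 of 10 tested rose and 1 fell, with a summed signal of 6.52 to 7.42 in irradiated and 2.68 to 3.53 in control arrays. Among all genes tested, 47.6% were called higher. Pecam1, Kdr, Emcn and Sox18 entered the test through irradiated arrays alone. Of the macrophage markers, 8 of 9 rose and 1 fell, with a summed signal of 19.4 to 22.6 in irradiated and 11.1 to 14.5 in control arrays. Cd68, Cd163, C1qb and Ptprc entered the test through irradiated arrays alone. The 1 that fell, Aif1, had a mean of -0.02 in irradiated and 3.24 in control arrays. Its deposited signal was the largest of the list in control arrays and made up most of the control sum, though levels do not compare between probe sets.

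Markers of the cells that hold droplets in the testis rose beside Fabp3, Plin2, Plin3, G0s2 and Lpl. Among all genes tested, 47.6% were called higher and 37.9% lower. Leydig cell markers rose in 8 of 8 tested, with a summed signal of 82.8 to 103 in irradiated and 6.61 to 9.51 in control arrays. Sertoli cell markers rose in 7 of 7 tested, with a summed signal of 96.4 to 145 in irradiated and 22.7 to 30.0 in control arrays. Amh, a marker of immature Sertoli cells, lay below the median in all 15 arrays and was not tested. Rhox5, also not tested, reached the median in 3 of 10 control arrays and in 0 of 5 irradiated arrays. Peritubular myoid markers rose in 6 of 6, with a summed signal of 14.8 to 21.4 in irradiated and 5.72 to 7.91 in control arrays. Tagln and Cnn1 among them entered the test through irradiated arrays alone. Spermatogonial markers went both ways (1 higher and 2 lower of 4 tested, with a summed signal of 4.28 to 4.95 in irradiated and 3.89 to 4.90 in control arrays). The 1 that was higher, Id4, had tested probe sets called in both directions, with changes from -0.84 to 0.84. The part of these markers in the changes of the members was not tested. With arrays centred on the mean of the 7 tested Sertoli cell markers, the median change of all genes was -2.07, and 7.37% of the called genes were higher against 55.7% as deposited. Under that centring 3 member genes were higher (Fabp3, G0s2 and Lpl) and 4 lower (Fabp5, Fabp9, Plin2 and Pnpla2).

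**Figure D2:**
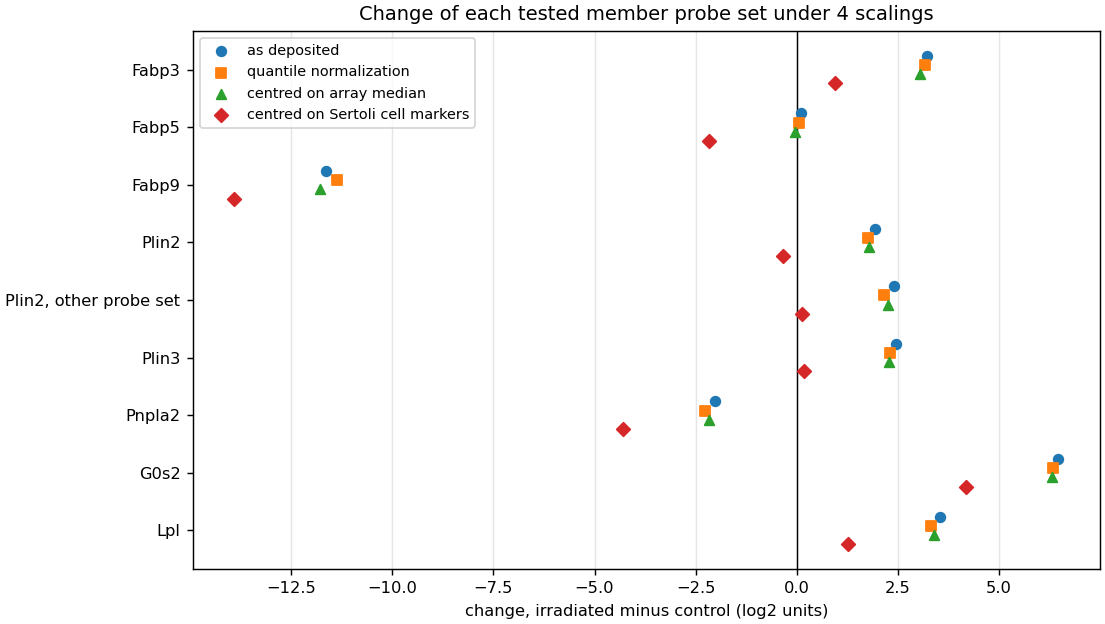
Change of each tested member probe set (horizontal axis, irradiated minus control, log2 units) as deposited and under 3 other scalings. Quantile normalization and centring on the array median leave each point close to the deposited one, while centring on the Sertoli cell markers moves every point to the left and brings Plin2 and Plin3 close to 0. Sizes for Fabp9, G0s2 and Lpl rest on values below the array median.

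Whether members changed unequally was tested on the difference of 2 of them within each array, where an array-wide scaling factor cancels. A 2-sided exact permutation test over samples was run for 5 pairs, with p-values adjusted over the pairs. The smallest unadjusted p it allows is 0.000333. G0s2 minus Pnpla2 changed by 8.49 (exact permutation adjusted p = 0.000833), and by 4.77 with arrays at no less than their medians (exact permutation adjusted p = 0.000555). Fabp3 minus Fabp9 changed by 14.85 (exact permutation adjusted p = 0.000833), and by 9.75 with arrays at no less than their medians (exact permutation adjusted p = 0.000555). Both differences moved the same way in 5 of 5 irradiated arrays, each outside the range of the control arrays. In both pairs each gene alone already separated the groups, in opposite directions. The test could therefore only give its smallest p there, and it adds nothing to the calls of the single genes.

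Plin2 minus Plin3 averaged -0.04 ± 0.19 in irradiated (SD, n = 5) and 0.47 ± 0.26 in control arrays (SD, n = 10), a change of -0.51 (exact permutation adjusted p = 0.00555). The groups overlapped, from -0.21 to 0.25 in irradiated and from -0.00204 to 0.774 in control arrays. With the mean of both Plin2 probe sets the change was -0.27 and did not pass (exact permutation adjusted p = 0.0866). The unequal change rests on the brighter Plin2 probe set, since the other changed by 2.42, close to the 2.45 of Plin3. The 2 pairs with Fabp4 give no reading of unequal change, since Fabp4 lay below the median in all 15 arrays and Lpl in all 10 control arrays. As deposited, Lpl minus Fabp4 changed by 2.84 (exact permutation adjusted p = 0.0158, and 0.0599 with a change of 2.15 without irradiated replicate 3). With arrays at no less than their medians it changed by 1.04 (exact permutation adjusted p = 0.000555), where Fabp4 is set to the median throughout. Fabp4 minus Fabp5 changed by 0.59 as deposited (exact permutation adjusted p = 0.454) and by 0.041 with arrays at no less than their medians (exact permutation adjusted p = 0.628).

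**Figure D3:**
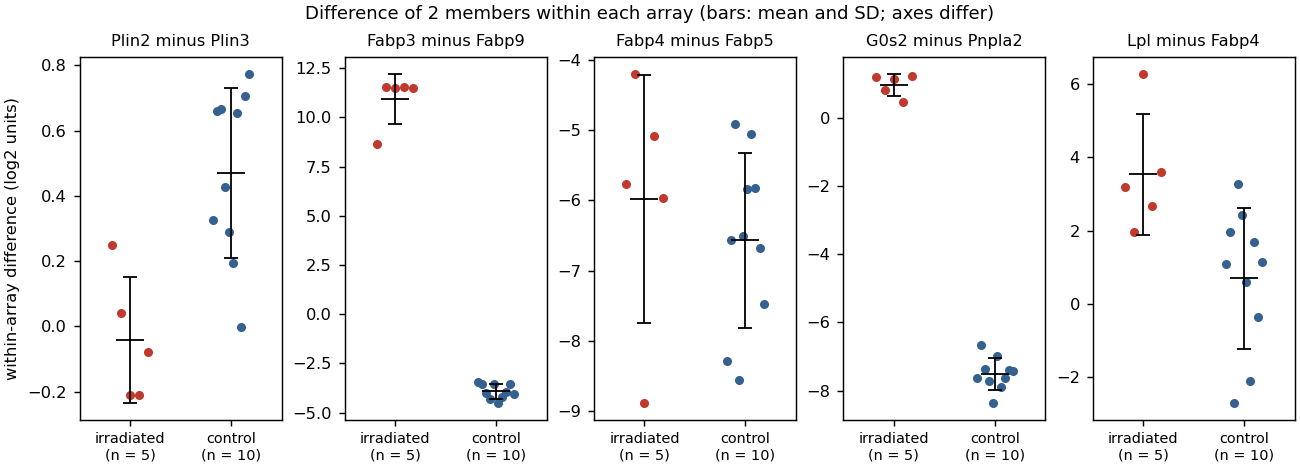
Difference of 2 members within each array (vertical axis, log2 units, a separate scale per panel), with 5 irradiated arrays (red) left of 10 control arrays (blue) and the mean and SD as black bars. G0s2 minus Pnpla2 and Fabp3 minus Fabp9 show groups that do not touch, while the other 3 pairs overlap.

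The other genes that handle fatty acids and droplets were taken from a list of 82, of which 59 were tested, 26 rose and 28 fell. Over all genes tested, 47.6% were called higher and 37.9% lower. The median change of the 59 was -0.29, against 0.20 over all genes tested. Among 16 genes of the droplet coat and of droplet size, 12 were tested, 4 rose, 6 fell and 2 did not pass (median -0.39). Hsd17b11, a dehydrogenase that sits on droplets, rose by 2.70 ± 0.09 (SE) and Rab18, a small GTPase of the droplet surface, by 2.09 ± 0.15 (SE). Bscl2, the seipin that shapes droplets as they bud from the endoplasmic reticulum, had a signal of 0.56 ± 0.07 in irradiated (SD, n = 5) and 3.89 ± 0.12 in control testes (SD, n = 10), and fell by 3.33 ± 0.08 (SE, limma adjusted p = 6.25e-16). The coat proteins Plin1 (-0.40, limma adjusted p = 0.104) and Plin4 (-0.38, limma adjusted p = 0.383) did not pass, and their irradiated signals all lay below the array median. Plin5 was not tested.

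Genes of lipolysis were tested in 7 of 8 cases, and 5 rose and 2 fell (median 1.503). These counts stand beside 47.6% of all genes tested called higher and 37.9% lower. The 2 that fell act with Pnpla2 in the classical order of triglyceride breakdown. Lipe, hormone-sensitive lipase, fell by 3.41 ± 0.22 (SE, limma adjusted p = 2.54e-10) in 1 probe set, while the other did not pass (0.49, limma adjusted p = 0.214). Mgll, monoglyceride lipase, fell in all 4 of its tested probe sets, by 3.79 ± 0.12 (SE) in the one read here. In 1 of the others every irradiated array lay below its median. Ddhd2, a lipase of the DDHD family, rose by 2.15 ± 0.12 (SE) and Abhd6, a monoglyceride hydrolase, by 2.04 ± 0.11 (SE). Lipa, the lysosomal acid lipase, rose by 1.503 ± 0.10 (SE). Among other regulators of Pnpla2 on the list, the co-activator Abhd5 had probe sets that went both ways. They changed by 1.34, and by -3.24 measured with every irradiated array below its median. The inhibitor Hilpda fell by 1.20 ± 0.11 (SE, limma adjusted p = 2.86e-08), opposite to G0s2.

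Among 19 genes that control lipoprotein lipase or take up fatty acids, 12 were tested, 5 rose, 5 fell and 2 did not pass (median 0.02). The shares of all genes tested were 47.6% higher and 37.9% lower. Cd36, a membrane protein that takes up fatty acids, was below the array median in 8 of 10 control arrays and above it in all 5 irradiated arrays, a rise of at least 4.43 (limma adjusted p = 1.29e-09). Angptl4, a secreted inhibitor of Lpl, was below the median in 9 of 10 control arrays and rose by at least 2.21 (limma adjusted p = 1.25e-10). When arrays were centred on Sertoli cell markers, Angptl4 changed by 0.18 and did not pass (limma adjusted p = 0.320). Lmf1, which folds Lpl in the endoplasmic reticulum, had a change of at most -1.26 (limma adjusted p = 9.57e-06), and Sel1l, which also serves its maturation, rose by 1.10 ± 0.37 (SE, limma adjusted p = 0.0121). The fatty acid transporter Slc27a1 rose by 1.36 ± 0.15 (SE) and Slc27a5 was at least 1.45-fold lower. Dbi, the acyl-CoA binding protein and the only tested gene among 7 other binding proteins, rose by 1.69 ± 0.13 (SE).

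All 18 tested genes of fatty acid activation and ester synthesis were called, 6 higher and 12 lower (median -1.09). Over all genes tested, 85.5% were called, 47.6% higher and 37.9% lower. Dgat2, which makes triglyceride, had a change of at most -4.73 (limma adjusted p = 1.96e-15), and its other probe set changed by -2.05. Agpat3, an acyltransferase of phospholipid and triglyceride synthesis, had a change of at most -4.52, and Dgat1 fell by 1.49 ± 0.12 (SE). Soat1, which makes the cholesteryl esters that Leydig and adrenal cells store, went against them and rose by 3.04 ± 0.16 (SE, limma adjusted p = 1.83e-11), with 2.34 in its other probe set. Acsl4, an acyl-CoA synthetase known from steroidogenic cells, rose by 2.67 ± 0.12 (SE).

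Of 9 tested transcription factor genes that sense or control lipids, 5 rose, 3 fell and 1 did not pass (median 0.49). The shares of all genes tested were 47.6% higher and 37.9% lower. Cebpb was at least 3.24-fold higher and Srebf1, which drives fatty acid synthesis, rose by 1.87 ± 0.14 (SE). Pparg, the nuclear receptor of adipocytes, was at least 1.15-fold lower, and Ppargc1a at least 1.20-fold lower. Both lay below the median in every irradiated array, and Pparg no longer passed with values set to the array median (limma adjusted p = 0.136). The groups overlapped for Ppargc1a, whose measured change was -1.02 (limma adjusted p = 0.00664), -0.57 without irradiated replicate 2, and -0.99 with a replicate block, where it did not pass (limma adjusted p = 0.0606). When arrays were centred on Sertoli cell markers, 5 of the 59 tested genes were higher and 47 lower. Over all genes, 7.37% of those called were higher under that centring.

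**Figure D4:**
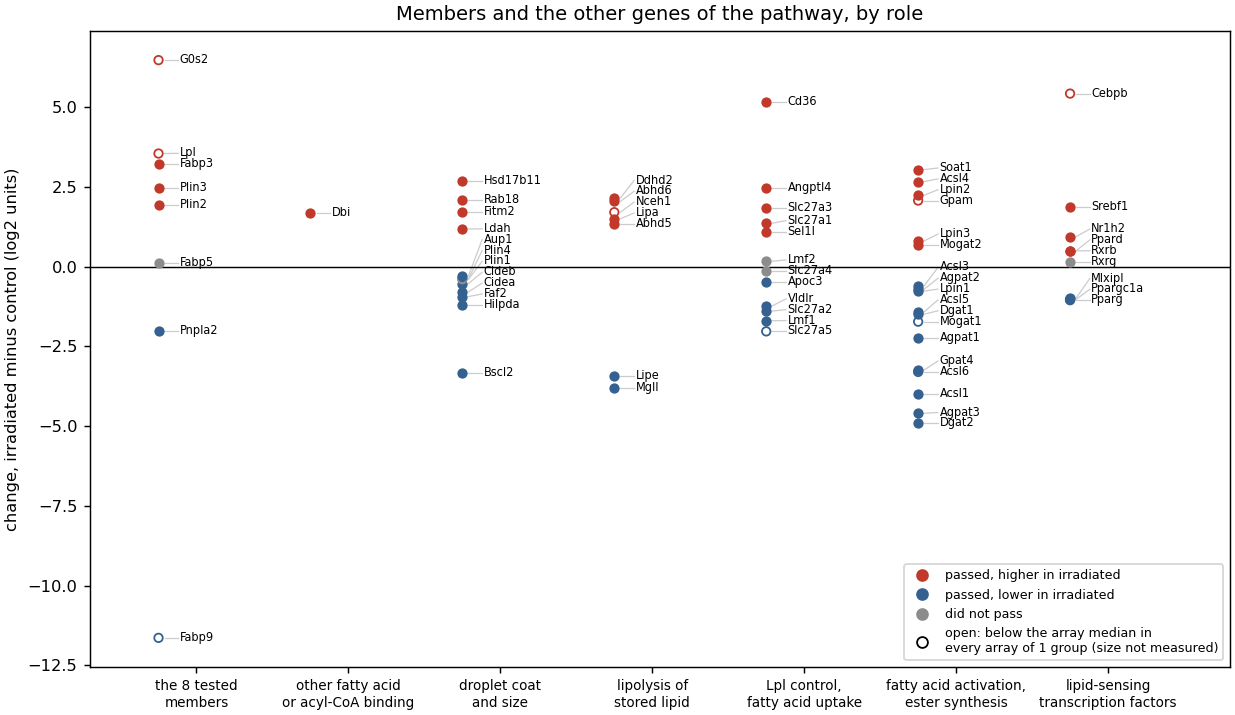
Change of each tested gene (vertical axis, irradiated minus control, log2 units) for the 8 tested members and for the other genes of the pathway by role, with 1 probe set per gene. Red marks genes that passed the test and rose, blue those that passed and fell, grey those that did not pass, and open circles genes that lay below the array median in every array of a group. Genes of ester synthesis reach from Soat1 at 3.04 to Dgat2 at -4.91.

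Among the 10 control arrays, the SD was 0.22 for Fabp3 and Fabp9, 0.12 for Fabp5 and Pnpla2, 0.14 for the brighter Plin2 probe set and 0.26 for Plin3. As a description, each of these 6 was set against 7836 other genes that lay above the median in all control arrays, after each array's median was subtracted, and the genes with the highest Pearson correlation were taken. Such values are the highest of 7836 over 10 arrays and carry no test. Fabp9 ran closest to the mitochondrial COX2 (r = 0.994), Phf5a (r = 0.972) and the transition protein gene Tnp1 (r = 0.962). Fabp5 ran closest to Meig1 (r = 0.955), a gene of meiosis and spermiogenesis, then to Tspan6 (r = 0.951) and Zdhhc4 (r = 0.950).

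Pnpla2 ran closest to Aldh1a1 (r = 0.970), Psmg4 (r = 0.960) and Tnrc6b (r = 0.949). For Plin3 they were Lrwd1 (r = 0.934), Cfap298 (r = 0.930) and Mettl13 (r = 0.927), and for Plin2 they were Tmem116 (r = 0.949), Asah1 (r = 0.923) and Orc2 (r = 0.922). Fabp3 had the lowest values, with Rundc1 (r = 0.909), C10h17orf100 (r = 0.907) and Tmed3 (r = 0.881). Without the 2 control arrays farthest from each member's median, the r of its first gene was 0.988 for Fabp9, 0.944 for Pnpla2, 0.915 for Plin3, 0.909 for Fabp5, 0.798 for Plin2 and 0.766 for Fabp3. In irradiated testes these genes did not all change as their member did. Meig1 was at least 41.6-fold lower, beside a change of 0.11 for Fabp5 that did not pass. Aldh1a1 changed by 3.21, beside -2.01 for Pnpla2. Tnp1 was at least 116-fold lower, beside at least 93.1-fold for Fabp9. The genes closest to Fabp9 did not fall with it: COX2 changed by -0.04 and did not pass (limma adjusted p = 0.784), and Phf5a rose by 1.33 (limma adjusted p = 6.58e-10).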

How the data were processed

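Testis RNA of 5 irradiated and 10 control samples was measured on Affymetrix arrays, from 10 µg of total RNA per labelling, per the labels. The submitters' processing notes name MAS5 as the tool behind the deposited log2 signals. How these were scaled is not stated there or in the labels. Base 2 was read from the hybridisation spike-ins, which rose by 0.879 units per doubling in irradiated and 0.861 in control arrays. No sample column was left unused (0). Names come from a 2016 annotation of the platform (20826 probe sets with 1 symbol, 436 with several, 9780 with none, beside 57 control probe sets left out of the tests).

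The 2-sided comparison used lmFit and eBayes of limma 3.58.1 (R 4.3.3), without covariates, on 18711 probe sets, with Benjamini-Hochberg adjustment, and all adjusted p-values of single genes come from it. The fit was tested on simulated data with known changes. Errors of changes are limma's moderated standard errors. No detection calls were used: where every array of a group had a probe set below the array's own median, only a bound is given ("at least N-fold"), with values set to no less than the array median, as also where a group's mean lay below it. Summed signals are sums of 2 to the power of the deposited value. They add probe sets whose levels cannot be compared, so the probe sets with the highest deposited values weigh most in them. Precision is limited by the number of arrays. The members, gene lists and marker lists were chosen with earlier results of these data known. Named were all members and, per role, the 2 largest rises and falls that passed; Plin1, Plin4, Plin5, Abhd5, Lipa, Sel1l, Slc27a1 and Dgat1 were added after their values were seen. Scaling, filters, pseudocounts, floors, variance model and sample subsets were tried as alternatives.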

Additional observations from a re-analysis of the deposited data

Results flagged for a closer look

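In 30 checks of a sample standing apart from its group, 4 were positive, where chance gives about 1 in 20. Fabp9 was -4.14 in irradiated replicate 1, above the other irradiated arrays, though still below that array's median. Fabp3 minus Fabp9 was 8.66 in the same array for that reason. Lpl was -0.56 in irradiated replicate 3, the lowest of its group. Pnpla2 was 2.02 in control replicate 6, the lowest of its group and 1 of the 3 control arrays with a high actin 3' to 5' difference.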

How the results depend on the processing

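Each of the 8 member probe sets called kept its direction and call under every alternative run in which it was tested, except under centring on the Sertoli cell markers. There the counts became 3 higher and 4 lower, by probe set and by gene, and 5 higher and 47 lower for the 82 pathway genes, the change of Plin2 turned to -0.33, and the other Plin2 probe set (0.14) and Plin3 (0.18) no longer passed, nor did Angptl4 (0.18). The median of all genes moved from 0.20 to -2.07 by construction, and 7.37% of all called genes were higher there. Fabp5 turned to -2.16 there and to -0.041 with arrays centred on their median. Dbi (-0.58), Rab18 (-0.19), Ddhd2 (-0.12), Abhd6 (-0.23) and Srebf1 (-0.40) also turned under centring on the Sertoli cell markers. With a filter at the 75th percentile Lpl was not tested. Leaving out 1 replicate gave 6 higher and 2 lower member probe sets, 5 higher and 2 lower member genes, 25 to 26 higher and 27 to 29 lower pathway genes.

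Among the paired differences, leaving out 1 replicate gave 14.7 to 15.4 for Fabp3 minus Fabp9, 8.39 to 8.61 for G0s2 minus Pnpla2, -0.58 to -0.47 for Plin2 minus Plin3, 0.15 to 1.32 for Fabp4 minus Fabp5 and 2.15 to 3.24 for Lpl minus Fabp4. The last was 2.34 and did not pass with control replicates 1 to 5 only. Fabp4 minus Fabp5 turned to -0.031 with a pseudocount of 1, and Plin2 minus Plin3 was -0.27 with the mean of the Plin2 probe sets. The causes were not tested. The samples share only replicate numbers: deviations of same-numbered samples correlated between -0.05 and 0.07, and 1 of 5 irradiated samples correlated best with its own number. With a replicate block, limma gave 6 higher and 2 lower member probe sets and 26 higher and 26 lower pathway genes, and Ppargc1a (-0.99, adjusted p 0.0606) no longer passed. Paired by number, 5 pairs of samples allow no exact p below 0.0625, so no difference could pass, and the changes were -0.52 for Plin2 minus Plin3, 14.71 for Fabp3 minus Fabp9, 8.53 for G0s2 minus Pnpla2 and 2.34 for Lpl minus Fabp4. Signals below the array median limit the sizes given for Fabp9, G0s2 and Lpl.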
